A study of Mus musculus with 5 samples.

Results

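Interleukin 4 (IL-4), its receptor chains and a set of IL-4-responsive genes were examined in macrophages taken from mouse tumors. The 9 genes were chosen by name: the ligand Il4, the receptor chains Il4ra, Il13ra1 and Il2rg, and the target or regulatory genes Retnla, Tgm2, Klf4, Cd200r1 and Pparg. Each had 1 row of its own among the 24982 rows of the authors' deposited table, and all 9 were among the 12311 rows that were tested. The study sequenced 3 libraries of macrophages from 9609 MEK1-hi tumors treated with MEK1-hi exosomes, and 2 libraries from 9609 MEK1-low tumors treated with MEK1-low (GFP) exosomes. The 9609 line is an MCA fibrosarcoma, MCA being the usual abbreviation of methylcholanthrene, exosomes are small vesicles shed by cells, and MEK1 is a kinase of the ERK cascade. In the labels, MEK1-hi and MEK1-low name the tumor line, its genotype and the exosomes, so these cannot be told apart, and they state neither mouse strain, sex, age, nor whether libraries came from separate or pooled animals.

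IL-4 is a cytokine of type 2 immunity, made mainly by T helper cells, basophils, eosinophils and innate lymphoid cells. On macrophages it binds IL-4 receptor alpha (Il4ra), which pairs with the common gamma chain (Il2rg), or, for IL-4 and IL-13, with IL-13 receptor alpha 1 (Il13ra1). Janus kinases bound to these chains phosphorylate STAT6, and STAT6 together with factors such as KLF4 and PPAR gamma turns on the genes of alternative activation.

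In MEK1-hi macrophages, Il4 alone of the 9 genes changed by the deposited Cuffdiff test. It was listed at 0, against a low level in MEK1-low macrophages. The call was lost under 3 other settings, but none of these was able to keep it, for reasons given with its values. Whether both MEK1-low libraries or 1 of them carried Il4 reads cannot be seen from 1 pooled value. The receptor chains, Tgm2, Klf4 and Pparg all had higher values in MEK1-hi, but none of these 6 genes passed the test. Retnla had a lower value in MEK1-hi, among the lowest levels of the tested rows, and Cd200r1 had nearly equal values. Outside the 9 genes, Arg1, Mgl2 and Ccl17 of the alternative activation list fell in MEK1-hi, while the cytokine signalling inhibitor Socs1 and the transcription factor Cebpb rose.

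The deposited table has 1 value per group, in FPKM (fragment counts scaled by transcript length and library size), so levels of different genes may be compared but no SD can be given. A gene was called where its deposited q, the p-value adjusted over all tested rows, was at or under 0.05. By that rule 1.32% of tested rows were called, 0.999% higher and 0.325% lower in MEK1-hi. Of the 9 genes 1 was called, lower, and 7 of the 9 had higher values in MEK1-hi, as did 5688 of the 12311 tested rows. At an unadjusted p under 0.05, 2 of the 9 were higher (Pparg and Il2rg) and 1 lower (Il4), beside 6.08% of all tested rows, 3.5% higher and 2.58% lower in MEK1-hi. Their median log2 fold change was 0.28 over the 8 with a value above 0 in both groups, against -0.02 over all tested rows. With both groups brought to the same FPKM sum every log2 fold change would be 0.10 lower, which gave -0.09 for Cd200r1 and left the signs of the other 7. Because these are bulk samples, fewer cells that make a transcript and less of it per cell cannot be told apart.

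**Figure D1:**
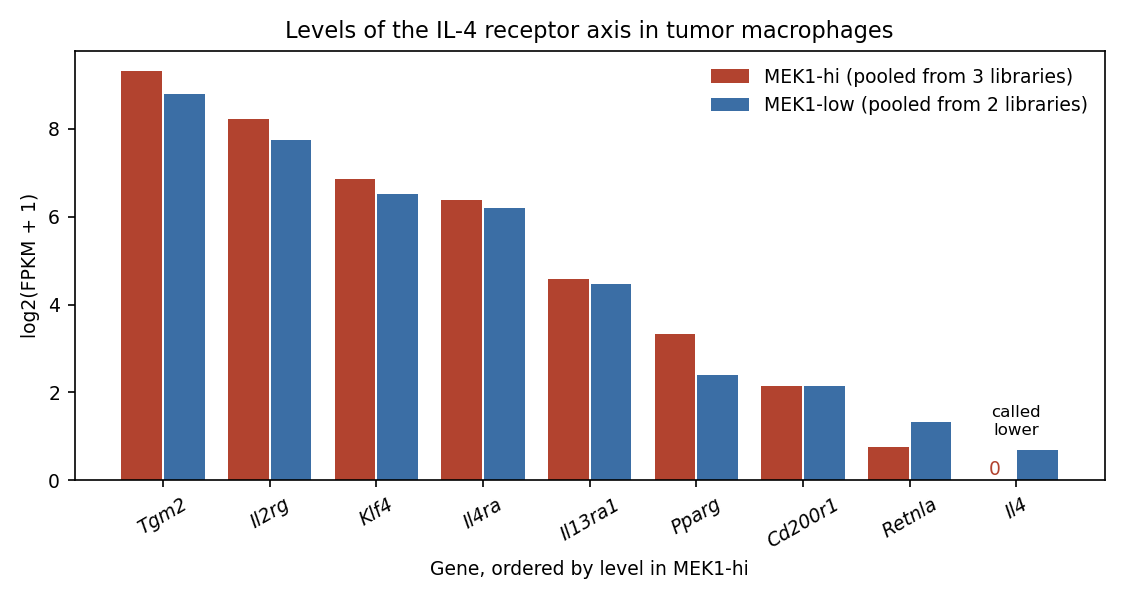
Level of each gene as log2(FPKM + 1), 1 bar per group, with MEK1-hi left of MEK1-low; values are the authors' pooled estimates, so there are no error bars. Tgm2 was highest (636 FPKM in MEK1-hi and 446 FPKM in MEK1-low) and Il4 lowest (0 FPKM in MEK1-hi and 0.603 FPKM in MEK1-low), and the genes had the same order in both groups.

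Macrophage markers were at high levels in both groups. All 10 macrophage markers were tested and 0 were called by the deposited Cuffdiff test, with 0 at an unadjusted p under 0.05. In the authors' deposited table, Lyz2, encoding lysozyme, had 6372 FPKM in MEK1-hi and 4999 FPKM in MEK1-low, and the complement gene C1qa had 3758 FPKM in MEK1-hi and 3261 FPKM in MEK1-low. C1qb, which encodes another chain of the same complement protein, had 3650 FPKM in MEK1-hi and 3163 FPKM in MEK1-low there.

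Il4 (mm10, chromosome 11, 53612461 to 53618665, minus strand) encodes the ligand. It had 0 FPKM in MEK1-hi macrophages and 0.603 FPKM in MEK1-low macrophages in the authors' deposited table (p = 5e-05, q = 0.00676). That p is the smallest in the table and is shared by 91 rows. Il4 was the least abundant of the 163 called rows; the next, Enpp5, reached 1.98 FPKM in its higher group. For coding transcripts of 530 to 605 bases, 0.603 FPKM is about 0.32 to 0.365 fragments in 1000000. Of 958 tested rows under 1 FPKM in both groups, Il4 was the only one called. Only 5 tested rows were listed at 0 in a group, and the other 4, which included AA413626 (0 FPKM in MEK1-hi, 0.675 FPKM in MEK1-low, q = 0.9998 in the authors' deposited table), were not called. Since a group is at 0, no fold change is given, and the deposited statistic of Il4 held spreadsheet error text. The call was lost under a Benjamini-Yekutieli adjustment, which left no row of the whole table called, as no row has a smaller p than Il4. It was also lost with p taken from the test statistic, for which Il4 has no number. The last such setting kept only rows with at least 1 FPKM in a group, a limit that Il4 itself does not reach. None of these settings was thus able to keep the call. The Benjamini-Yekutieli loss was shared by every called row, whereas the other losses follow from the low level of Il4. It was the only called row under 1 FPKM in both groups, and the only called row listed at 0 in a group.

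STAT6 binds palindromes with a spacer of 4 bases, written TTCNNNNGAA, whereas most other STAT proteins prefer TTCNNNGAA. Promoters of 7 of the 9 genes were found in RefSeq (GRCm38.p6, the same assembly as mm10), and the 250 bases before each start were searched; both motifs read the same on either strand, and a match of each cannot start at the same base. Of the 7 genes, 2, Il4 and Retnla, held TTCNNNNGAA and 0 held TTCNNNGAA, against 6.76% and 8.13% of all 27025 genes held there. Of 19 alternative activation genes with a promoter sequence, 6 held TTCNNNNGAA: Retnla, Ccl17, Clec7a, Pdcd1lg2, Tmem26 and Il1rn. Of these 6, only Ccl17 was called, lower in MEK1-hi. Clec7a, not called, had a higher value in MEK1-hi (374 FPKM in MEK1-hi and 288 FPKM in MEK1-low in the authors' deposited table). Mgl2, called lower, did not hold it. Of the same 19 genes, 2 held TTCNNNGAA, Chil3 and Ccl17. Of 7 IL-4 signalling inhibitors with a promoter sequence, 0 held TTCNNNNGAA and 1 held TTCNNNGAA. Of 10 IL-4 induced regulators with a promoter sequence, 0 held TTCNNNNGAA and 2 held TTCNNNGAA. A match describes the letters, not binding, and no relation between the motif and the values was tested.

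The promoters of Il4 and Retnla are shown because they are those of the 7 genes that hold the 4-base-spacer palindrome, given in capitals, and that of Ccl17 because it is a called gene of the wider list that holds it, a choice made after its values were seen. Each runs 5′ to 3′ on the gene's strand from 250 to 81 bases before the RefSeq start. Il4 lies on the minus strand at chr11:53618746-53618915, Retnla on the plus strand at chr16:48842359-48842528 and Ccl17 on the plus strand at chr8:94810203-94810372. The palindromes begin 167, 145 and 154 bases before the start. Il4 has 2 promoter entries, and only the entry shown holds the palindrome. For Retnla the RefSeq start is at 48842609 and the GENCODE start at 48842551, so its distances depend on the start used. Ccl17 also holds TTCNNNGAA, beginning 99 bases before the start and left in lower case.
Il4: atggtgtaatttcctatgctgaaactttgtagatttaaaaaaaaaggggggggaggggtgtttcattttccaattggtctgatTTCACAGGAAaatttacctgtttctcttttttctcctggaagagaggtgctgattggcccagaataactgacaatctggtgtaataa
Retnla: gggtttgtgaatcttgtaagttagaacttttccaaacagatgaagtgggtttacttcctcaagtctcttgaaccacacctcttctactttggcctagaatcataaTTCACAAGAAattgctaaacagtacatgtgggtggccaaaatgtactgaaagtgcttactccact
Ccl17: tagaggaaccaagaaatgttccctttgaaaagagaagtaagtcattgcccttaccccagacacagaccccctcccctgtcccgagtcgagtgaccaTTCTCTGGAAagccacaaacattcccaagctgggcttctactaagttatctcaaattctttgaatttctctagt

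The other type 2 cytokines of the same gene cluster were near 0. Il13, which encodes the cytokine that shares the receptor with IL-4, had 0.0136 FPKM in MEK1-hi and 0.187 FPKM in MEK1-low in the authors' deposited table. Il5, the eosinophil growth factor gene, had 0 FPKM in MEK1-hi and 0.0174 FPKM in MEK1-low, and Cuffdiff tested neither. The genes that flank or separate them were measured in both groups. Kif3a, a kinesin motor gene, had 3.07 FPKM in MEK1-hi and 3.55 FPKM in MEK1-low (q = 0.9998) in the authors' deposited table. Rad50, a DNA repair gene, had 5.01 FPKM in MEK1-hi and 6.08 FPKM in MEK1-low there (q = 0.9998). Irf1, an interferon-induced transcription factor gene at the far end of the cluster, had 305 FPKM in MEK1-hi and 146 FPKM in MEK1-low there and was called higher (q = 0.0163). These neighbours were chosen by position. IL-13 receptor alpha 2, a decoy receptor gene (Il13ra2), had 0 FPKM in MEK1-hi and 0.0357 FPKM in MEK1-low in the deposited table and was not tested.

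Markers of cells that can make IL-4 ranged from 0 FPKM to the 32.4 FPKM in MEK1-hi and 40.0 FPKM in MEK1-low of Il1rl1, some higher and some lower in MEK1-hi, and their part in the Il4 result was not tested. Of 10 mast cell, basophil and eosinophil markers 2 were tested by Cuffdiff. Kit, a receptor gene also expressed outside mast cells, had 10.9 FPKM in MEK1-hi and 4.13 FPKM in MEK1-low and was called higher (q = 0.00676 in the authors' deposited table). Siglecf, a lectin gene of eosinophils, had 0.483 FPKM in MEK1-hi and 0.401 FPKM in MEK1-low there (q = 0.9998). Among the untested markers, Ccr3, the eotaxin receptor gene, had 0.232 FPKM in MEK1-hi and 0.328 FPKM in MEK1-low. Ms4a2, a chain of the high-affinity IgE receptor, and Il5ra, the IL-5 receptor alpha chain, were at 0 in both groups. The other untested markers lie outside the naming rule and are given to complete the list. In the authors' deposited table the basophil protease gene Mcpt8 had 0.0278 FPKM in MEK1-hi and 0.257 FPKM in MEK1-low, and Cpa3, a mast cell and basophil protease gene, had 0.0239 FPKM in MEK1-hi and 0.149 FPKM in MEK1-low. Fcer1a, another IgE receptor chain, had 0 FPKM in MEK1-hi and 0.0284 FPKM in MEK1-low. Of the eosinophil granule genes, Prg2 had 0.0860 FPKM in MEK1-hi and 0.110 FPKM in MEK1-low there and Epx 0.00624 FPKM in MEK1-hi and 0 FPKM in MEK1-low. The summed level of the 10 markers was 11.8 FPKM in MEK1-hi and 5.40 FPKM in MEK1-low. Most of that sum was Kit, so it does not give the direction of the other markers.

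Of 7 tested T helper and innate lymphoid markers 0 were called. The summed level of that list, with Gata3, was 70.3 FPKM in MEK1-hi and 87.9 FPKM in MEK1-low. Most of that sum was Il1rl1, Cd4 and Il7r, so it does not give the direction of every marker. Il1rl1, the IL-33 receptor gene, was the most abundant, with 32.4 FPKM in MEK1-hi and 40.0 FPKM in MEK1-low in the authors' deposited table (q = 0.9998). Cd4, which macrophages can also express, had 19.3 FPKM in MEK1-hi and 27.8 FPKM in MEK1-low there and was the only one with an unadjusted p under 0.05 (q = 0.769). Il7r, the IL-7 receptor gene, came next, and its values are given with the common gamma chain genes. The genes that follow lie outside the naming rule and were chosen after their values were seen. Cd3e, a chain of the T cell receptor complex, had 1.74 FPKM in MEK1-hi and 0.889 FPKM in MEK1-low. Of the other chains listed, Cd3d had 1.43 FPKM in MEK1-hi and 0.680 FPKM in MEK1-low, and Cd3g 3.64 FPKM in MEK1-hi and 2.07 FPKM in MEK1-low. These chains were thus higher in MEK1-hi, but none was called (q = 0.9998 for each in the deposited table). Gata3, the T helper 2 regulator, had 0.186 FPKM in MEK1-hi and 0.271 FPKM in MEK1-low there and was not tested.

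**Figure D2:**
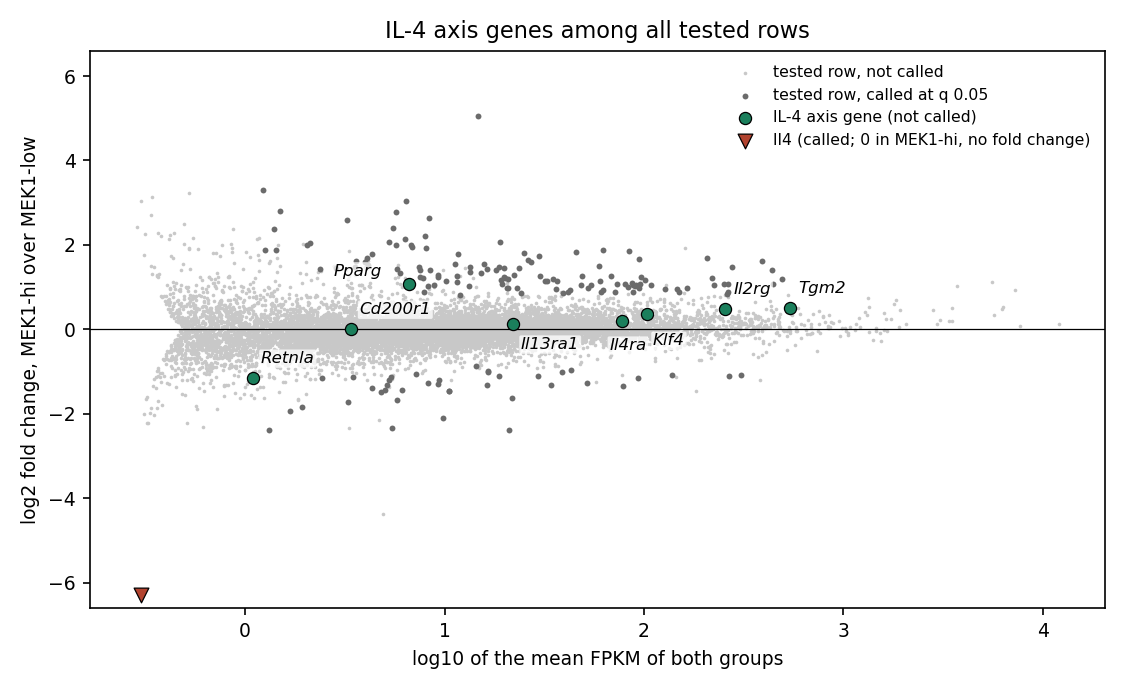
Each point is 1 tested row of the deposited table, with the log10 of the mean FPKM of both groups on the x axis and the log2 fold change of MEK1-hi over MEK1-low on the y axis; a triangle at the lower edge marks Il4, which has no fold change because it is listed at 0 in MEK1-hi. The 8 other IL-4 axis genes lie among rows that were not called, Pparg at 1.07 being the highest and Retnla at -1.15 the lowest.

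Transcripts of the receptor chains were measured in both groups and kept their order of level, while the receptor protein was not measured. Il4ra (chromosome 7, 125552271 to 125579474), the chain shared by both receptor types, had 82.7 FPKM in MEK1-hi and 72.1 FPKM in MEK1-low in the authors' deposited table, a log2 fold change of 0.20 (q = 0.9998). Its level was above that of 92.1% of tested rows in MEK1-hi and 91.4% in MEK1-low. Il13ra1 (chromosome X, 36112108 to 36171261), which completes the type II receptor, had 22.9 FPKM in MEK1-hi and 21.0 FPKM in MEK1-low there (log2 fold change 0.12, q = 0.9998). With equal FPKM sums the log2 fold change was 0.10 for Il4ra and 0.03 for Il13ra1.

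Il2rg (chromosome X, 101264385 to 101268255), which completes the type I receptor and serves the receptors of other cytokines too, was the most abundant chain. It had 299 FPKM in MEK1-hi and 212 FPKM in MEK1-low in the authors' deposited table (log2 fold change 0.49). Its unadjusted p was 0.0462 and its q 0.792, so it was not called. Il2rg exceeded Il4ra 3.61-fold in MEK1-hi and 2.95-fold in MEK1-low, and Il4ra exceeded Il13ra1 3.61-fold in MEK1-hi and 3.43-fold in MEK1-low, in FPKM. These ratios have no error and were not tested.

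Cytokines and receptor chains that also use the common gamma chain had 0 of 6 tested members called and a median log2 fold change of 0.27. Il15ra, the IL-15 receptor alpha chain, had 7.86 FPKM in MEK1-hi and 3.68 FPKM in MEK1-low in the authors' deposited table and was the only one with an unadjusted p under 0.05 (p = 0.00575, q = 0.231). Il21r, the IL-21 receptor, had 82.3 FPKM in MEK1-hi and 63.4 FPKM in MEK1-low there (q = 0.9998). Il7r, the IL-7 receptor, had 10.1 FPKM in MEK1-hi and 14.3 FPKM in MEK1-low (q = 0.900). Il15 had 8.33 FPKM in MEK1-hi and 7.41 FPKM in MEK1-low (q = 0.9998).

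Below the receptor, kinases, STAT6 and adaptors did not pass the test, whereas an inhibitor was called higher. Of 15 tested signalling genes 0 were called and 0 had an unadjusted p under 0.05 in the deposited table (median log2 fold change -0.01). Stat6 had 48.7 FPKM in MEK1-hi and 45.7 FPKM in MEK1-low in the authors' deposited table. Jak1, a kinase of the type I and type II receptors, had 52.6 FPKM in MEK1-hi and 52.8 FPKM in MEK1-low there. Irs2, the insulin receptor substrate that IL-4 also uses, had 45.8 FPKM in MEK1-hi and 47.6 FPKM in MEK1-low. Akt1, Grb2 and Nfil3, the most abundant of the list, had log2 fold changes of -0.08, 0.29 and 0.38. The Jak3 row is joined with Insl3 in the table and had 20.0 FPKM in MEK1-hi and 15.7 FPKM in MEK1-low (q = 0.9998).

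Among 10 signalling inhibitors 1 was called, higher, beside 0.999% of all tested rows. At an unadjusted p under 0.05, 3 were higher, beside 3.5% of all tested rows (median log2 fold change of the list 0.22). Socs1, which blocks Janus kinases and is induced by IL-4 as well as by interferons, rose 2.45-fold, to 31.8 FPKM in MEK1-hi against 12.96 FPKM in MEK1-low (q = 0.00676 in the authors' deposited table). Socs3, an inhibitor mainly of gp130 cytokine signalling, had 259 FPKM in MEK1-hi and 177 FPKM in MEK1-low there (q = 0.665). Ptpn6, the phosphatase SHP-1, had 143 FPKM in MEK1-hi and 89.8 FPKM in MEK1-low (q = 0.214), so neither passed.

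**Figure D3:**
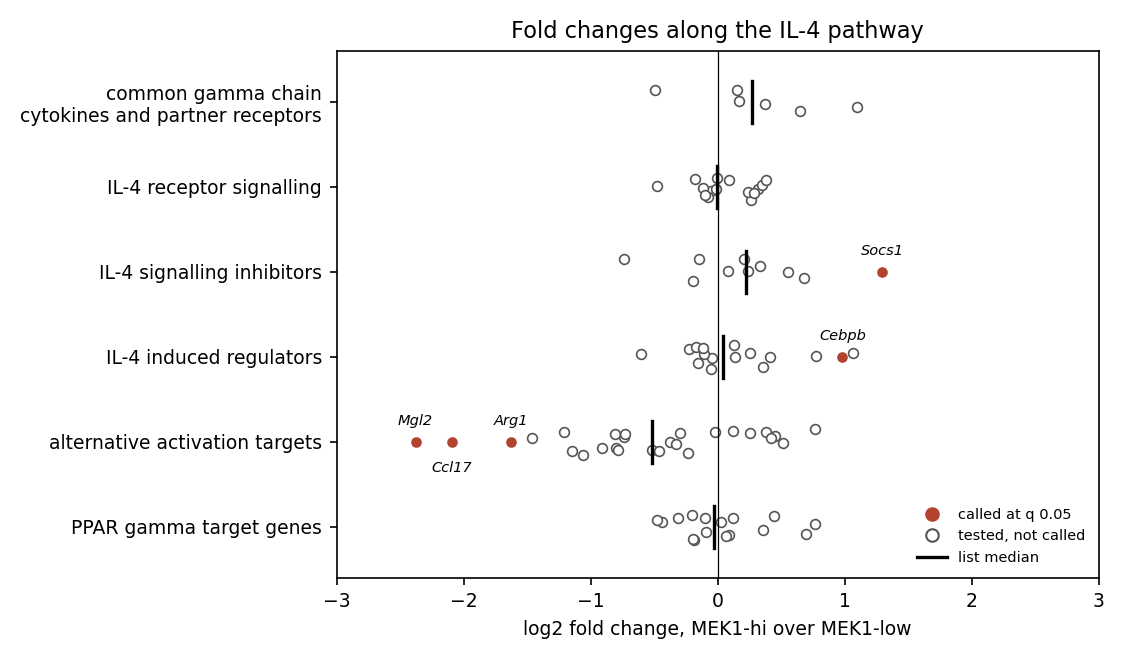
Log2 fold change of MEK1-hi over MEK1-low (x axis) for the tested genes of 6 lists, 1 point per gene with vertical jitter, filled where called, and a bar at the list median. Of these 6 lists, alternative activation targets had the lowest median, -0.52, and hold the 3 genes called lower, while 1 inhibitor, Socs1, and 1 regulator, Cebpb, were called higher.

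The regulatory genes Klf4 and Pparg had higher values in MEK1-hi and did not pass the test. Klf4 (chromosome 4, 55527137 to 55532475), a zinc-finger factor that acts with STAT6 in mouse macrophages, had 116 FPKM in MEK1-hi and 90.4 FPKM in MEK1-low in the authors' deposited table (log2 fold change 0.36, p = 0.142, q = 0.9998). Pparg (chromosome 6, 115360951 to 115490401), a lipid-sensing nuclear receptor, had 8.99 FPKM in MEK1-hi and 4.29 FPKM in MEK1-low there. That is 2.10-fold, or 1.07 on the log2 scale, with a statistic of 1.99, p = 0.0035 and q = 0.173 in the authors' deposited table.

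Of 16 regulators linked to the IL-4 response 1 was called, higher, beside 0.999% of all tested rows. The median log2 fold change of the list was 0.04 (-0.06 with equal FPKM sums). Cebpb, a factor needed in mice for Arg1 induction, rose 1.97-fold, with 125 FPKM in MEK1-hi and 63.4 FPKM in MEK1-low (q = 0.00676 in the authors' deposited table). Myc had 336 FPKM in MEK1-hi and 307 FPKM in MEK1-low there, and Nr4a1, an orphan nuclear receptor gene, 339 FPKM in MEK1-hi and 309 FPKM in MEK1-low. Both had q = 0.9998. Among genes outside the naming rule and chosen after their values were seen, Irf4 had 5.28 FPKM in MEK1-hi and 6.18 FPKM in MEK1-low, with q = 0.9998 in the authors' deposited table. Egr2 had 53.9 FPKM in MEK1-hi and 82.1 FPKM in MEK1-low there (q = 0.524).

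PPAR gamma target genes had 0 of 16 called and a median log2 fold change of -0.03. At an unadjusted p under 0.05, where 3.5% of all tested rows were higher, 2 of the 16 were higher. These were the fatty acid transporter gene Cd36, with 18.0 FPKM in MEK1-hi and 10.6 FPKM in MEK1-low (q = 0.134 in the authors' deposited table), and the sterol exporter gene Abcg1. Abcg1 had 22.8 FPKM in MEK1-hi and 14.1 FPKM in MEK1-low there (q = 0.196). The most abundant members were Pltp, a phospholipid transfer protein gene, the lipid droplet gene Plin2 and the cholesterol exporter gene Abca1, each with q = 0.9998. Their log2 fold changes were -0.09, -0.20 and -0.44. In the Klf family, where 0 of 11 tested genes were called, Klf6 had 212 FPKM in MEK1-hi and 211 FPKM in MEK1-low. Klf10 had 50.6 FPKM in MEK1-hi and 50.6 FPKM in MEK1-low in the authors' deposited table.

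The downstream genes differed among themselves. Tgm2 (chromosome 2, 158116405 to 158146392), encoding a protein-crosslinking transglutaminase that IL-4 induces in both mouse and human macrophages, was the most abundant of the 9 genes. It had 636 FPKM in MEK1-hi and 446 FPKM in MEK1-low in the authors' deposited table (log2 fold change 0.51, p = 0.108, q = 0.9998), above 99.4% of tested rows in MEK1-hi and 99.1% in MEK1-low. Its locus overlaps Rprd1b on the other strand, which had 7.16 FPKM in MEK1-hi and 6.65 FPKM in MEK1-low (q = 0.9998), and the strand setting of the counting is not given in the sources used here. In GENCODE, Il4ra, Il2rg and Pparg also overlap other annotated genes (Gm44876, Gm20489 and Gm44079), for which no value was used here.

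Related transglutaminase genes did not share its level. F13a1, coagulation factor XIII A, had 14.2 FPKM in MEK1-hi and 26.3 FPKM in MEK1-low in the authors' deposited table (p = 0.00185, q = 0.109), and Tgm1 1.47 FPKM in MEK1-hi and 2.11 FPKM in MEK1-low (q = 0.9998). The other 5 family genes were not tested by Cuffdiff and were under 0.1 FPKM in each group.

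Retnla (chromosome 16, 48842609 to 48844461) encodes RELM alpha, a secreted protein that marks alternative activation in mice, and its promoter is printed with that of Il4. It had 0.678 FPKM in MEK1-hi and 1.50 FPKM in MEK1-low in the authors' deposited table (log2 fold change -1.15, statistic -0.996, p = 0.132, q = 0.9998). Only 5.39% of tested rows in MEK1-hi and 13.3% in MEK1-low were lower. On the log2(FPKM + 1) scale the difference was -0.58. Retnlg, a related neutrophil gene, had 0.205 FPKM in MEK1-hi and 1.03 FPKM in MEK1-low in the authors' deposited table (p = 0.0478, q = 0.803), while Retn and Retnlb were not tested.

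Cd200r1 (chromosome 16, 44765736 to 44794977) encodes the inhibitory receptor for CD200. It had 3.42 FPKM in MEK1-hi and 3.39 FPKM in MEK1-low in the authors' deposited table (log2 fold change 0.01, or -0.09 with equal FPKM sums, p = 0.979, q = 0.9998). The related receptor gene Cd200r4 had 9.88 FPKM in MEK1-hi and 6.19 FPKM in MEK1-low in the authors' deposited table (p = 0.0382, q = 0.718), and the ligand gene Cd200 0.522 FPKM in MEK1-hi and 0.812 FPKM in MEK1-low (q = 0.9998).

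The wider alternative activation list contained the genes that fell. Cuffdiff called 3 of its 27 tested genes, all lower in MEK1-hi, beside 0.325% of all tested rows called lower. With an unadjusted p under 0.05 there were 10 lower and 1 higher, beside 2.58% lower and 3.5% higher of all tested rows. The median log2 fold change was -0.52, and 20 lay below 0 and 7 above. Of all 12311 tested rows, 6623 lay below 0 and 5688 above. The list was chosen with earlier results of these data known, so these counts describe it and do not test it. Arg1, which encodes arginase, had 10.6 FPKM in MEK1-hi and 32.8 FPKM in MEK1-low in the authors' deposited table (q = 0.00676). Mgl2, a galactose-binding lectin gene, had 6.76 FPKM in MEK1-hi and 35.1 FPKM in MEK1-low there (q = 0.00676). Ccl17, a chemokine gene whose product attracts CCR4-bearing T cells, had 3.73 FPKM in MEK1-hi and 15.9 FPKM in MEK1-low (q = 0.0276). Of these 3, Ccl17 is the gene whose promoter is printed with that of Il4. The list holds Tgm2 and Retnla as well.

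Other members, outside the naming rule and chosen after their values were seen, had mixed values. In the authors' deposited table, Mrc1, the mannose receptor, had 142 FPKM in MEK1-hi and 236 FPKM in MEK1-low (q = 0.460). Fn1, which encodes fibronectin, had 232 FPKM in MEK1-hi and 535 FPKM in MEK1-low there (q = 0.230). Chil3, which encodes the mouse lectin Ym1, had 1.56 FPKM in MEK1-hi and 1.31 FPKM in MEK1-low (q = 0.9998). Clec7a, the beta-glucan receptor Dectin-1, had 374 FPKM in MEK1-hi and 288 FPKM in MEK1-low (q = 0.9998).

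Markers of other cells moved too, and their part in these values was not tested. For the counts that follow, 0.999% of all tested rows were called higher and 0.325% lower. All 10 fibroblast and tumor stroma markers had lower values in MEK1-hi, of which 4 (Col6a3, Acta2, Thy1, Col5a1) were called, and their summed level was 790 FPKM in MEK1-hi and 1329 FPKM in MEK1-low. Fibroblasts also make Fn1. Of 8 dendritic cell markers 3 were called higher (Clec9a, Xcr1, Cadm1), with a summed level of 87.5 FPKM in MEK1-hi and 55.8 FPKM in MEK1-low. Dendritic cells can also make Ccl17 and carry Mgl2, but whether the cells with the 3 called markers do so was not tested. Cd209a, also on the alternative activation list, was the 1 dendritic cell marker with a lower value in MEK1-hi. It had 4.64 FPKM in MEK1-hi and 9.68 FPKM in MEK1-low (q = 0.274 in the authors' deposited table). Of 8 monocyte markers 4 were called higher (Ly6c2, Plac8, Ace, Treml4), with a summed level of 722 FPKM in MEK1-hi and 528 FPKM in MEK1-low. Of those sums, Nr4a1, which was not called, made up 339 FPKM in MEK1-hi and 309 FPKM in MEK1-low. Vcan, outside the naming rule, was the 1 monocyte marker with a lower value in MEK1-hi. It had 11.5 FPKM in MEK1-hi and 19.0 FPKM in MEK1-low (q = 0.290 in the authors' deposited table).

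**Figure D4:**
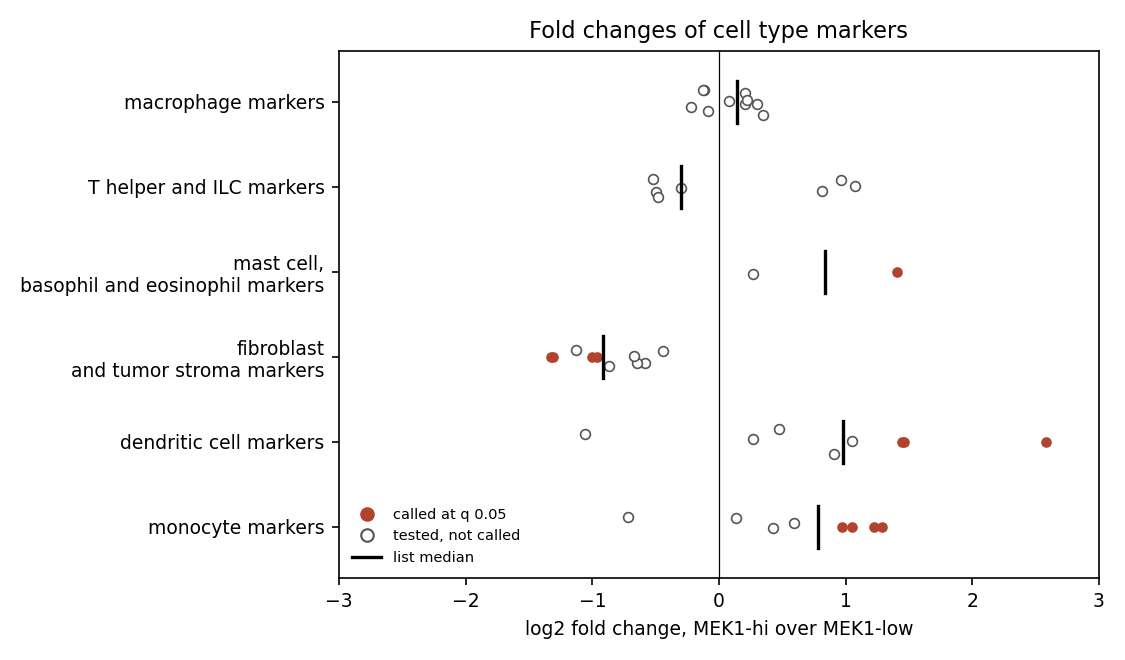
Log2 fold change of MEK1-hi over MEK1-low (x axis) for the tested markers of 6 cell type lists, 1 point per gene with vertical jitter, filled where called, and a bar at the list median. Macrophage markers lie near 0 (median 0.14), fibroblast and tumor stroma markers below 0 (-0.91), and dendritic cell (0.98) and monocyte (0.78) markers mostly above it.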

How the data were processed

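RNA-seq of mouse tumor macrophages was deposited by the authors as 1 Cuffdiff table with 24982 rows. It gives 1 pooled FPKM per group, estimated by the authors, with a p-value, a q-value and a test statistic (a score), all used as deposited. Per the labels' protocols, stranded poly(A) libraries were sequenced. Per the submitters' processing notes, the tools were Cuffdiff, Cufflinks, TopHat and FastQC 0.73, and the build was mm10. The annotation and strand setting are not given. Deposited q was within 5e-07 of a Benjamini-Hochberg adjustment computed here over the 12311 tested rows.

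Fold changes were computed here from FPKM, since the deposited column held spreadsheet error text. Depth is unknown and there is no value per library, so no replicate test, interval or SD could be made. The labels name no animals, so Cuffdiff's p reflects variation among libraries that may be technical replicates. The 9 genes and 18 lists (179 symbols, 177 found) were chosen with earlier results of these data known. Named genes were the 9 genes and, in each list, those called plus the most abundant up to 3. Irf1 and other Il4 neighbours were named by position. Further genes lie outside the naming rule and were named for their role, motif or p after their values were seen. They were Il13, Il13ra2, Il15ra, Stat6, Jak1, Jak3, Irs2, Cd36, Abcg1, Cd209a, Retnlb, Irf4, Egr2, Mrc1, Fn1 and Chil3. The others were Clec7a, Pdcd1lg2, Tmem26, Il1rn, Cd3e, Cd3d, Cd3g, Gata3, Vcan and the lesser mast cell, basophil and eosinophil markers. Loci are the authors', written 1-based; overlaps came from GENCODE M21 and promoters from RefSeq. Adjustments and fold changes were tested on simulated data. Alternatives changed threshold, adjustment, source of p, filter, pseudocount and scaling. Software was Python 3.11.15 with scipy 1.17.1, pandas 2.3.3, numpy 2.4.6 and matplotlib 3.10.9.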

Additional observations from a re-analysis of the deposited data

How the results depend on the processing

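The count of called genes among the 9 was 1 at a q of 0.05, 0.01 and 0.1. It was 3 at an unadjusted p under 0.05 (Il4, Il2rg and Pparg). It was 0 under the Benjamini-Yekutieli adjustment, which left no row of the whole table called. It was 0 with p taken from the test statistic, where Il4 has no number, and 0 among rows with at least 1 FPKM in a group, which leaves Il4 out. That filter also took the count of ligands and receptors to 0 and left the counts of the other 16 lists as they were. Neither pseudocount nor median centring changed the sign of any of the 8 log2 fold changes, and equal FPKM sums changed only that of Cd200r1. Equal sums turned 3 of 18 list medians negative: IL-4 induced regulators (-0.06), CD200 and its receptors (-0.09) and the Klf family (-0.09). Leaving out each library could not be run without values per library. No paired analysis was possible because the columns carry no replicate numbers. With 3 and 2 libraries and unknown depth, values near 0, such as those of Il4, Il13 and Retnla, limit what can be read.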
